A study of Mus musculus with 4 samples.

Results

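The genes described here are the protein-coding genes that had no count in either normal chow library and a minimum of 12 counts in both high-fat diet libraries. A few gene families were left out by name, namely symbols beginning with Ccl, Cxcl, Col, Mmp, Adamts, Serpin, Kcn or Hist, and Glycam1. The rule took 81 of 21976 protein-coding genes in the tables, and it would have taken 87 with those names included. The 4 libraries hold total RNA, which the labels describe as coming from macrophages of the islets of wild-type (WT) mice of the inbred strain C57BL/6. Of these, 2 represent normal chow (NCD) and 2 a high-fat diet (HFD), on which mice become obese. Both diets share genotype and strain, and the sources used here do not state the age of the mice or how long they were fed. Nothing in the labels ties the libraries of a diet to different animals, so a p-value refers only to the spread between libraries, which could be technical. Because the rule used the counts of both diets, the difference between the diets is how these genes were chosen, and their values are given as a description without a test.

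Islets of Langerhans are clusters of hormone-secreting cells within the exocrine pancreas, with capillaries, nerve endings, fibroblasts and a small population of resident macrophages. Macrophages of fat, liver and islets are known to increase in number or change their state in obesity, and lymphocytes can join them. A transcript that is abundant in a rare cell type, such as a granule protein of eosinophils or a co-receptor of cytotoxic T cells, can appear in bulk RNA at a few counts per library. In such bulk RNA, fewer cells of a type and less RNA per cell cannot be told apart.

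The libraries held between 56740720 and 64490097 counts over 55421 gene identifiers. Their most abundant transcripts were those of endocrine cells, so the label was checked against marker genes. The insulin gene Ins2 stood at 9832 ± 85.2 CPM (counts relative to the scaled library size; mean ± SD, n = 2) in NCD and 8518 ± 299 CPM in HFD, and the glucagon gene Gcg at 9253 ± 312 and 13131 ± 465 CPM. The macrophage genes were present at lower levels. Adgre1, which encodes F4/80, had 1901 and 1982 counts in NCD and 1636 and 1376 in HFD (log2 change -0.27, edgeR adjusted p = 0.0726), while Csf1r stood at 86.5 ± 5.08 and 101 ± 1.10 CPM, and Cd68 at 146 ± 2.06 and 122 ± 3.06 CPM. The libraries therefore hold RNA of endocrine cells beside that of macrophages, and which cell a transcript came from was not measured. The quasi-likelihood test of edgeR, run on 21563 genes, called 3860 higher in HFD (17.9%) and 3123 lower (14.5%) at a Benjamini-Hochberg adjusted p under 0.05. Without HFD replicate 1 the number lower was 2015.

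Appearance in HFD was more frequent than disappearance. Among the 15072 protein-coding genes with 12 or more counts in both HFD libraries and no name left out, the 81 members made up 0.537%. The mirror rule, 0 counts in both HFD libraries and a minimum of 12 in both NCD libraries, took 10 of 14640 genes, or 0.0683%. Those 10 were Apobec4, Asb10, Cyp4a10, D930020B18Rik, Fam177a, Gm37988, Gm5868, Prdm14, Tceal6 and Ttc30a2. All but Fam177a, with 3040 and 3136 counts in NCD, had between 12 and 63 counts. The number of members depends on each library, as a rule of this kind does. With the condition on NCD replicate 1, NCD replicate 2, HFD replicate 1 or HFD replicate 2 dropped, it became 190, 177, 154 or 179, and the mirror count became 37, 40, 34 or 34.

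Members were scarce transcripts. Together they held 3941 counts in HFD replicate 1 and 3272 in HFD replicate 2, which is 0.00637% and 0.00577% of the libraries. Their mean level in HFD had a median of 0.455 CPM and ran from 0.203 CPM to 7.26 CPM, the latter for A2m. For comparison, the protein-coding genes with 12 or more counts in both HFD libraries had a median of 27.7 CPM. Only 13 members reached 1 CPM, and 46 stayed under 0.5 CPM. Per kilobase of exon the members had a median of 0.196 CPM, against 6.16 CPM per kilobase for those protein-coding genes, and their median exonic length was shorter (2532 against 4329 bases). On that scale the highest was Cfd, at 1.96 CPM per kilobase, and the lowest Grin2b, at 0.0155. A2m and Dsc3 alone supplied 20.9% and 21.0% of the members' counts in the 2 HFD libraries.

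For absence in NCD the floor was 12 counts in each library, equal to 0.186 and 0.193 CPM in the NCD libraries, because low counts in these tables pile up at multiples of 4. Of the 162 HFD values of members, 67 were multiples of 4 (41.4%). Among member values of 12 to 99 the share was 41.3%, and among all protein-coding HFD counts in that range it was 32.9%. The mean of the 2 HFD libraries lay 2-fold or more above the floor for 48 of the 81 members and 4-fold or more for 19. For the other 33 it was under 2-fold. The floor covers counting error in NCD only. The HFD means carry no allowance for their own error, and a single HFD library can lie lower. All 81 members passed the count filter and were called higher by edgeR, but they passed only through HFD and were chosen for that difference, so the calls add nothing. The number called fell to 62 without the count filter and to 34 with a replicate block. It was 42 without NCD replicate 1 or NCD replicate 2, 22 of 67 tested without HFD replicate 1 and 22 of 71 tested without HFD replicate 2.

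**Figure D1:**
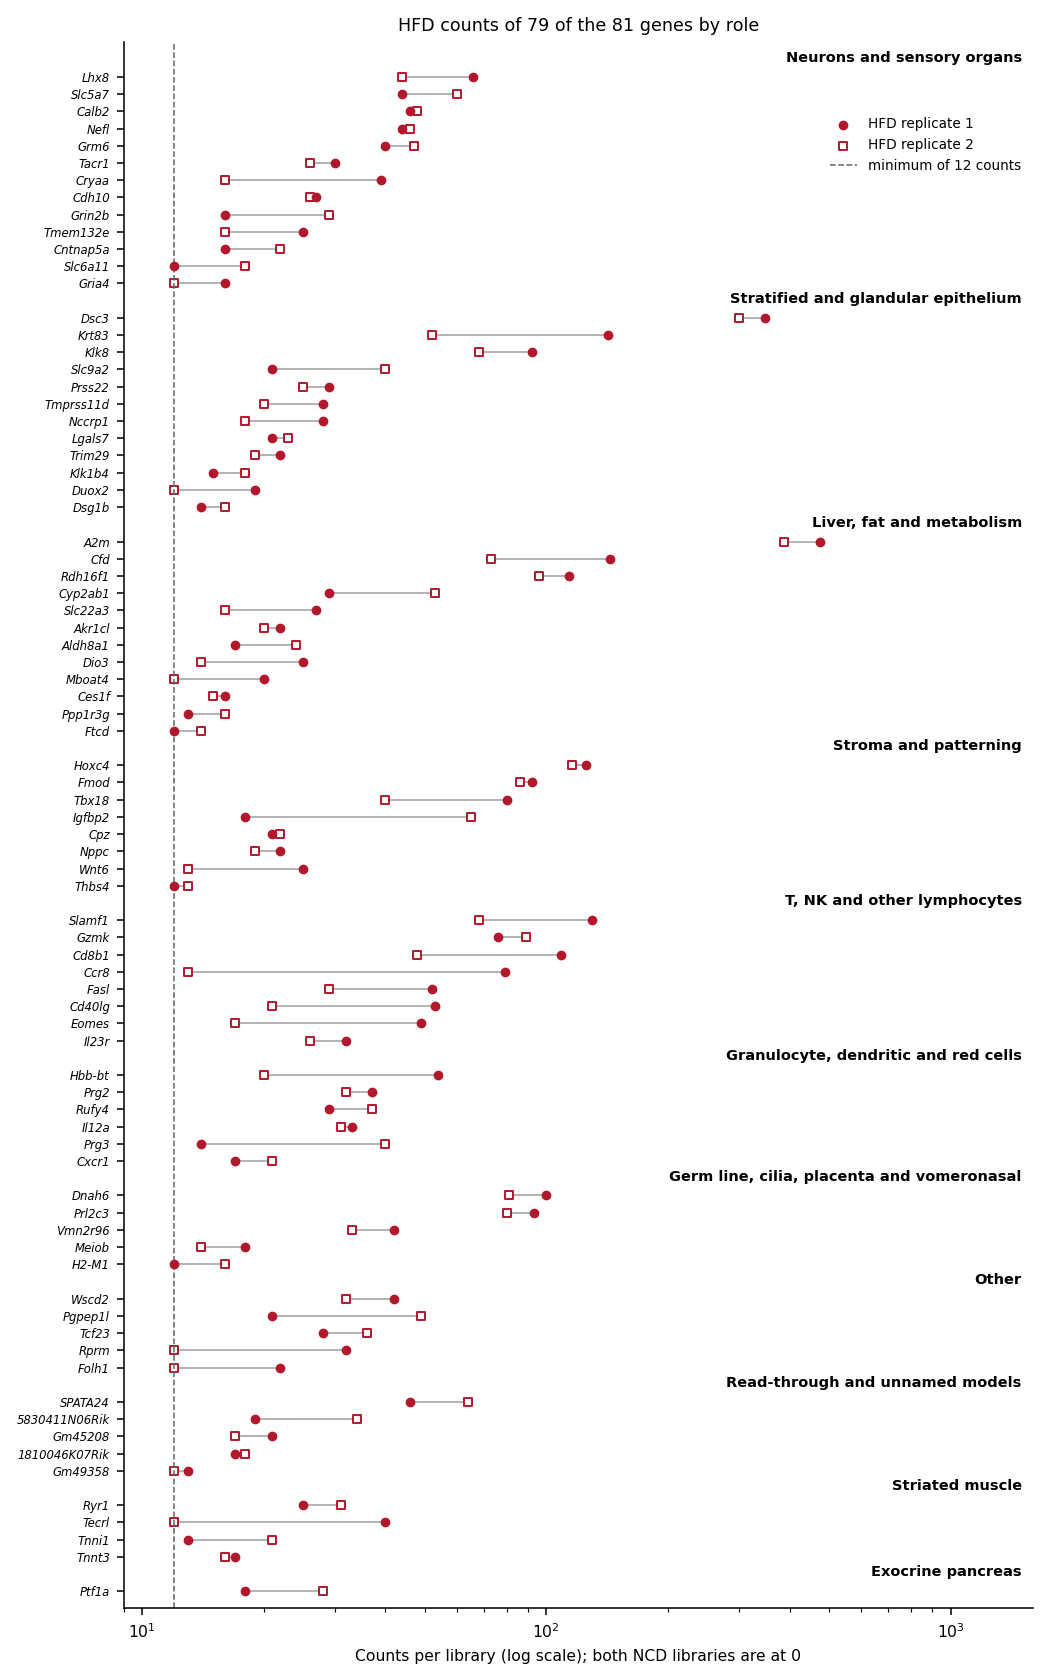
Counts of 79 of the 81 genes in the 2 HFD libraries on a logarithmic axis, grouped by the cell type or role known for each gene. Filled circles are HFD replicate 1, open squares HFD replicate 2, grey lines join the pair and the dashed line marks the minimum of 12 counts. A2m (476 and 387) and Dsc3 (348 and 299) stand apart from the other 77, of which none exceeds 144 counts.

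The members were sorted into 11 groups by the cell types or tissues known to express them, a sorting made with their values known. Neurons and sensory organs (13 genes), stratified and glandular epithelium (13) and liver, fat and metabolism (12) were the largest groups, and lymphocytes (8) and stroma (8) followed. All NCD counts are 0, so each pair of counts given for a member is that of HFD replicate 1 and HFD replicate 2, in that order. The plot of counts by role shows 79 of them.

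Promoters of 55 members were found in the RefSeq table for GRCm38.p6. For 5 members of different groups, the 250 bases before the annotated start are printed to show the kind of sequence searched, with matches to the motifs in capitals. They are Eomes of T and NK cells (49 and 17 counts; chr9:118477939-118478188, plus strand), Fmod of connective tissue (92 and 86; chr1:134037004-134037253, plus strand), Cfd of fat (144 and 73; chr10:79890603-79890852, plus strand), Prl2c3 of placenta (93 and 80; chr13:12800080-12800329, minus strand) and Ptf1a of the exocrine pancreas (18 and 28; chr2:19445413-19445662, plus strand). The sequences read 5′ to 3′ towards the start of the gene.
Eomes: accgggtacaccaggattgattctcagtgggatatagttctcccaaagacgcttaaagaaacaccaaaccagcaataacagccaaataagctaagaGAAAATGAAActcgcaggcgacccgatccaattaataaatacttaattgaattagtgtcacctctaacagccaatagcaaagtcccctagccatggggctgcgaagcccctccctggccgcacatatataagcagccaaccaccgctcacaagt
Fmod: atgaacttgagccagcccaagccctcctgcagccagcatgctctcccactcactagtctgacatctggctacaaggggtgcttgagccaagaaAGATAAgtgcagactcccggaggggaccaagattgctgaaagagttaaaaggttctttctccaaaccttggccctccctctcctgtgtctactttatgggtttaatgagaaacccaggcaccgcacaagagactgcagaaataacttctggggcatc
Cfd: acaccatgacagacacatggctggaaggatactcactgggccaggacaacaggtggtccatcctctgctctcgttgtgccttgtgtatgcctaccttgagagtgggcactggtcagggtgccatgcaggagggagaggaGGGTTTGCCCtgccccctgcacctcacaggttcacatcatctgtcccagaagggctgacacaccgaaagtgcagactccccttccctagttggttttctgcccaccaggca
Prl2c3: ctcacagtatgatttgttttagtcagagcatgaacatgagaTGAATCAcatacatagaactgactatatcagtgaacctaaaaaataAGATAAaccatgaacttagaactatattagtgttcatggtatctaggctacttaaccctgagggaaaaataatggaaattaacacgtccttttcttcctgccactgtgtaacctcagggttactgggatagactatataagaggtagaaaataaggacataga
Ptf1a: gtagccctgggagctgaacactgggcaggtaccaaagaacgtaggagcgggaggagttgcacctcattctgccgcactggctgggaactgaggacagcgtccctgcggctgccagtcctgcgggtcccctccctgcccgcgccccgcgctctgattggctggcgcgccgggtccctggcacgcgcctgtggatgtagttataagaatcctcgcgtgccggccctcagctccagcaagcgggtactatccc
The capitals mark an interferon response element-like match (TTTC, any 2 bases and TTTC, here on the opposite strand) in Eomes, an AGATAA match (GATA-like) in Fmod, a kappaB-like match (3 G, any 5 bases and 2 C) in Cfd, and a TGANTCA match (AP-1) and an AGATAA match in Prl2c3. Ptf1a held none of the 9 motifs in these letters.

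Motif shares were set beside those of all promoters in the table. Over a window of 250 bases before to 50 after the start, and on both strands, the kappaB-like motif was found in 34 of the 55 members (61.8%) and in 53.5% of 27025 genes. AGATAA was found in 11 members against 12.7% of genes, TGANTCA in 12.7% of members against 8.97%, and the octamer ATTTGCAT in 3.64% against 1.97%. TATAAA was less frequent in members, at 12.7% against 15.7%, as were GGGCGG (GC box, 32.7% against 38.2%), GAGGAAGT (PU.1-like, 1.82% against 3.69%) and the interferon response element-like motif (1.82% against 3.99%). TGACGTCA (CRE) was in 1.82% of members and 2.03% of genes. At 55 members, 1 gene is worth 1.82%, so these shares rest on few genes, and a match describes letters, not binding.

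Among the 8 lymphocyte genes were surface receptors, effector molecules and a transcription factor of T and NK cells. Slamf1 encodes CD150, a self-binding receptor of lymphocytes and dendritic cells (ENSMUSG00000015316; chromosome 1, 171767127 to 171801184). It had 130 and 68 counts, with a mean level 8.71-fold above the floor. Cd8b1, the beta chain of the co-receptor of cytotoxic T cells, had 109 and 48. Its dimer partner Cd8a, which is no member, had 14 and 9 counts in NCD and 118 and 88 in HFD (log2 change 3.24, edgeR adjusted p = 0.00394), so that both chains stood at similar counts in HFD. Gzmk, a granzyme of effector T and NK cells, had 76 and 89 counts, and the pore-forming Prf1 had 0 and 4 in NCD and 77 and 121 in HFD (edgeR adjusted p = 0.00909, and 0.0528 without HFD replicate 2).

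Fasl, the death ligand of cytotoxic cells, had 52 and 29 counts. Its receptor gene Fas rose from 7.20 ± 0.332 to 13.8 ± 1.56 CPM (edgeR adjusted p = 0.00604). Cd40lg, the ligand by which helper T cells activate B cells and macrophages, had 53 and 21 counts, while its receptor gene Cd40 stood at 8.82 ± 1.03 CPM in NCD and 11.1 ± 0.359 CPM in HFD (edgeR adjusted p = 0.137). Ccr8, a chemokine receptor found on regulatory and type 2 helper T cells, had 79 and 13 counts, the widest gap between HFD libraries of all members. Of its ligand genes, Ccl1 was at 0 in all 4 libraries, and Ccl8 had 6 and 12 counts in NCD and 26 and 56 in HFD, which did not pass (log2 change 2.28, edgeR adjusted p = 0.0708). Eomes, a T-box transcription factor of cytotoxic cells, had 49 and 17 counts, and the related Tbx21 had 26 and 8 in NCD and 87 and 59 in HFD (edgeR adjusted p = 0.0492, not passed without NCD replicate 2, HFD replicate 1 or HFD replicate 2, at 0.0888, 0.188 and 0.108, or without the count filter, at 0.0696). Il23r, the receptor chain specific to IL-23 on type 17 lymphocytes, had 32 and 26 counts. Its partner chain gene Il12rb1 rose from 0.315 ± 0.0365 to 3.95 ± 0.597 CPM (edgeR adjusted p = 0.000819), and the ligand chain gene Il23a did not pass (log2 change 0.72, edgeR adjusted p = 0.36).

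Other lymphocyte genes moved with these 8. Of 28 tested T cell genes that are no member, 25 were higher and 1 lower in HFD, with a median log2 change of 3.23, against a median of 0.00 over all tested genes. Tcf7, a transcription factor of naive and memory T cells, rose from 2.14 ± 0.0451 to 36.1 ± 5.65 CPM, and Icos, a co-stimulatory receptor, from 0.521 ± 0.00883 to 6.48 ± 0.199 (edgeR adjusted p = 9.19e-05 and 0.000307). Summed over the list without its members, T cell genes reached 106 and 108 CPM on chow, against 318 and 268 CPM on the high-fat diet. Il7r (42.5 ± 1.11 CPM) and Skap1 (34.8 ± 3.03 CPM) made up most of the sum on chow, so it says little about the scarcer genes. Skap1 was the gene that fell, to 16.5 ± 0.217 CPM (edgeR adjusted p = 0.00105). NK and cytotoxic genes passed as higher in 7 of 12 tested, a count of 2 without HFD replicate 2, and B cell genes in 19 of 22. Il2rb, a receptor chain for IL-2 and IL-15, rose from 4.06 ± 0.263 to 30.2 ± 2.84 CPM (edgeR adjusted p = 0.000133), and Cd79b, a signalling chain of the B cell receptor, from 4.29 ± 0.0674 to 28.8 ± 0.124 CPM (edgeR adjusted p = 9.27e-05). Whether the number of lymphocytes in the preparation set these counts was not tested.

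In several lymphocyte genes the 2 HFD libraries differed. By level, 7 of the 8 were higher in HFD replicate 1, Gzmk being the exception, and 4 differed by more than 2-fold. Their summed counts were 580 and 311, or 14.7% and 9.50% of all member counts. Over the 81 members, the higher HFD library exceeded the lower by a median of 1.35-fold, 13 members differed by more than 2-fold, and the direction was even, with 41 higher in HFD replicate 1 and 40 in HFD replicate 2. The T cell genes that are no member leaned the same way, with 25 of 28 higher in HFD replicate 1 and a median log2 ratio of 0.33, whereas 49.9% of all tested genes were higher in that library. The B cell list had 15 of 22 and a median of 0.11. The NK and cytotoxic list leaned the other way, with 5 of 12 and a median of -0.36. Members outside the lymphocyte group with a gap over 2-fold were Igfbp2, Prg3, Pgpep1l and Slc9a2, each higher in HFD replicate 2, and Tecrl, Krt83, Hbb-bt, Rprm and Cryaa, each higher in HFD replicate 1.

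**Figure D2:**
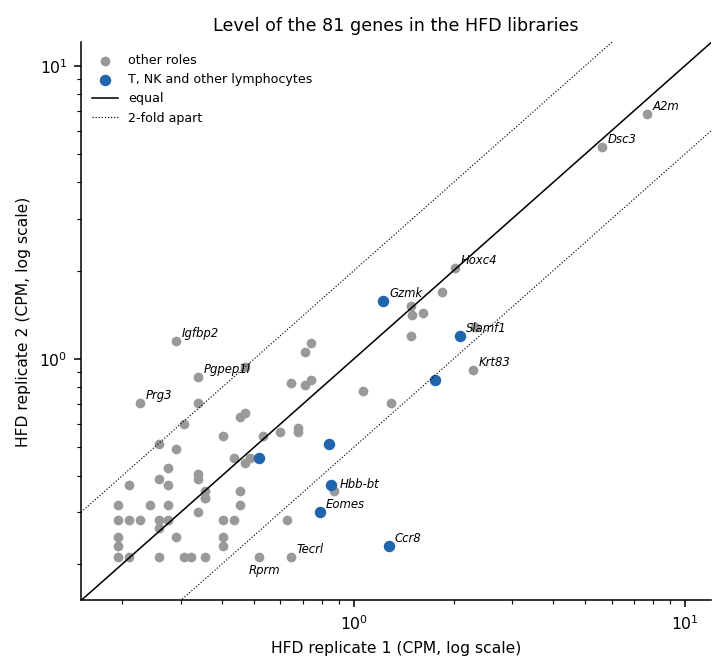
Level of each of the 81 genes in HFD replicate 1 (horizontal) and HFD replicate 2 (vertical), in CPM on logarithmic axes; blue points are the 8 lymphocyte genes and grey points all others. The solid line marks equal levels and the dotted lines a 2-fold gap, and 7 of the 8 blue points lie below the solid line.

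Genes of eosinophils, neutrophils and dendritic cells were also among the members. Prg2 and Prg3 encode the major basic protein of eosinophil granules and its homolog, and they are neighbours on chromosome 2 with 4582 bases and no protein-coding gene between them. Prg2 had 37 and 32 counts, nearly equal, whereas Prg3 had 14 and 40. Other eosinophil genes differed among themselves. Il5ra, the receptor chain for IL-5 that B cells also carry, had 32 and 8 counts in NCD and 151 and 160 in HFD (edgeR adjusted p = 0.0158, and 0.0583 without HFD replicate 2). Epx, the eosinophil peroxidase gene, was at 0 in all 4 libraries, Siglecf had 0 and 0 counts in NCD and 12 and 4 in HFD, and Ccr3 had 12 and 13 in NCD and 22 and 0 in HFD (edgeR adjusted p = 0.957).

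Cxcr1, a receptor for neutrophil-attracting chemokines, had 17 and 21 counts. Its neighbour Cxcr2 had no count in NCD and 36 and 4 in HFD, and so fell short of the rule. Of 18 neutrophil genes 7 were at 0 in every library (S100a8, Retnlg, Ngp, Elane, Mpo, Stfa2 and Ly6g), 4 had enough counts to be tested, and 2 of these passed as higher. Mmp8, a collagenase of neutrophil granules, had 275 and 234 counts in NCD and 543 and 408 in HFD (edgeR adjusted p = 0.0117, and 0.0545 without HFD replicate 1). Acod1, the enzyme that makes itaconate and is also known from macrophages, had 172 and 175 counts in NCD and 494 and 572 in HFD (edgeR adjusted p = 0.00209). The other 2 tested genes did not pass. Csf3r, a receptor gene, stood at 9.39 ± 1.45 CPM in NCD and 7.47 ± 0.925 CPM in HFD (edgeR adjusted p = 0.225). Il1f9 had 15 and 0 counts in NCD and 64 and 36 in HFD (edgeR adjusted p = 0.157). The summed level of the neutrophil list was 15.2 to 17.8 CPM in NCD and 25.2 to 26.7 CPM in HFD, and Mmp8, Acod1 and Csf3r made up most of it. Rufy4, a regulator of autophagy known from dendritic cells, lies beyond Cxcr2 on chromosome 1 and had 29 and 37 counts.

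Il12a, the p35 chain shared by IL-12 and IL-35, had 33 and 31 counts (ENSMUSG00000027776; chromosome 3, 68690644 to 68698547). Il12b, the p40 chain that pairs with p35 in IL-12, had 28 and 32 counts in NCD and 153 and 112 in HFD (log2 change 2.23, edgeR adjusted p = 0.00603). Ebi3, the other partner of p35, had 98 and 34 counts in NCD and 212 and 144 in HFD, which did not pass (log2 change 1.53, edgeR adjusted p = 0.0763). It did pass by the Wald test of DESeq2 (adjusted p = 0.0308), by limma-voom (adjusted p = 0.0458) and by edgeR with a replicate block (adjusted p = 0.0429). The log2 change was 2.44 without NCD replicate 1. Il12a was thus the chain with no count in NCD. Of 22 other cytokine genes tested, 13 were higher. Il1b rose from 6.60 ± 0.260 to 62.7 ± 0.264 CPM and Ltb, a lymphotoxin chain, from 0.884 ± 0.0229 to 12.96 ± 1.28 CPM (edgeR adjusted p = 3.86e-05 and 0.000143). Dendritic cell genes passed as higher in 10 of 13 tested, among them Ccr7, which guides mature dendritic cells and lymphocytes into lymph nodes, from 7.72 ± 0.593 to 92.2 ± 15.0 CPM (edgeR adjusted p = 9.4e-05). The 10 also include Klk1, a kallikrein gene not particular to dendritic cells, from 8.86 ± 0.697 to 65.4 ± 3.81 CPM (edgeR adjusted p = 6.27e-05). Siglech, Ccr9 and Clec9a did not pass (edgeR adjusted p = 0.449, 0.935 and 0.121).

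Of the red cell genes, Hbb-bt, an adult beta-globin gene, had 54 and 20 counts. Other globin genes went the opposite way between the HFD libraries. The near-identical Hbb-bs had 63 and 33 counts in NCD and 108 and 365 in HFD, and Hba-a1 had 89 and 72 in NCD and 161 and 282 in HFD. Both passed in all 4 libraries together (edgeR adjusted p = 0.0468 and 0.028) and neither passed without NCD replicate 1 (0.0807 and 0.0677), NCD replicate 2 (0.148 and 0.0925) or HFD replicate 2 (0.197 and 0.122) and with a replicate block (0.114 and 0.0569). The call for Hbb-bs was also lost by limma-voom (0.134) and without the count filter (0.0698). A stretch of 323 bases is identical in Hbb-bt and Hbb-bs, so reads could be assigned to either. The erythroid list without Hbb-bt summed to 2.51 to 3.80 CPM in NCD and 6.01 to 14.7 CPM in HFD, and whether residual blood set these counts was not tested.

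Stratified and glandular epithelium supplied 13 members. Dsc3 encodes desmocollin 3, an adhesive cadherin of desmosomes in stratified epithelium (ENSMUSG00000059898; chromosome 18, 19960930 to 20002351). It had 348 and 299 counts, or 5.45 ± 0.240 CPM (SD, n = 2), a mean 28.8-fold above the floor. Krt83, a hard keratin of hair, had 142 and 52 counts. Klk8, a secreted kallikrein-family serine protease of skin and brain, had 92 and 68. Slc9a2, a sodium-proton exchanger of gut epithelium, had 21 and 40 counts, and the secreted or membrane-bound serine proteases Prss22 and Tmprss11d had 29 and 25, and 28 and 20. Nccrp1, an F-box protein of squamous epithelium, had 28 and 18 counts and Lgals7, the galectin of stratified epithelium, 21 and 23. Trim29, Klk1b4, Duox2 and Dsg1b had 12 to 22 counts per HFD library.

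Defining genes of squamous epithelium were at or near 0. The basal keratin gene Krt5 was at 0 in all 4 libraries, Krt14 had 4 counts in HFD replicate 1 and 0 in the other libraries, and Trp63, which specifies squamous epithelium, had 0 and 3 in NCD and 12 and 4 in HFD. Among the desmosomal cadherins, Dsc2 stood at 18.5 ± 3.72 CPM in NCD and 17.4 ± 2.07 CPM in HFD (edgeR adjusted p = 0.768) and Dsg2 at 72.6 ± 0.0825 and 79.4 ± 0.116 CPM (edgeR adjusted p = 0.136). Dsg3 had 5 and 12 counts in NCD and 46 and 90 in HFD (edgeR adjusted p = 0.0233, and 0.0687 and 0.165 without NCD replicate 1 and HFD replicate 2). Klk6 and Klk7, proteases that act beside Klk8 in skin, and Duoxa2, the maturation factor of Duox2, were at 0 in every library. Duct and gut epithelium genes were split, with 9 of 15 tested higher and 2 lower, a count of 1 lower without either NCD library or without HFD replicate 1. Sox9, a transcription factor of duct cells, rose from 3.96 ± 0.143 to 18.3 ± 2.34 CPM and Krt7, a duct keratin, fell from 445 ± 4.07 to 241 ± 13.3 CPM (edgeR adjusted p = 0.000429 and 0.000263).

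Liver, fat and metabolic genes included the most abundant member. A2m encodes alpha-2-macroglobulin, a plasma inhibitor that traps proteases of many classes (ENSMUSG00000030111; chromosome 6, 121635376 to 121679227). It had 476 and 387 counts, or 7.26 ± 0.603 CPM (SD, n = 2), a mean 38.3-fold above the floor. Its clearance receptor gene Lrp1 rose from 331 ± 26.8 to 619 ± 25.2 CPM (edgeR adjusted p = 0.000542), and Pzp, a related inhibitor, did not pass (log2 change 0.64, edgeR adjusted p = 0.309). Cfd, which encodes adipsin, the factor D protease of the alternative complement pathway, had 144 and 73 counts. C3, the protein on which that pathway acts, rose from 70.9 ± 3.77 to 732 ± 6.87 CPM (log2 change 3.37, edgeR adjusted p = 1.36e-05).

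Cfd is best known as an adipocyte product, but several defining fat cell genes had no count. Adipoq, Lep, Retn and Adrb3 were at 0 in all 4 libraries, and the adipocyte list without Cfd summed to 71.8 to 73.6 CPM in NCD and 66.2 to 68.9 CPM in HFD. Plin1, the lipid droplet coat of adipocytes, missed the rule by its NCD counts, with 3 and 0 counts in NCD and 109 and 74 in HFD (edgeR adjusted p = 0.00612). Of 7 tested genes 3 were higher and 1 lower, a count of 1 higher without HFD replicate 2. Pparg, the adipogenic nuclear receptor, fell from 52.3 ± 1.75 to 33.5 ± 1.19 CPM (edgeR adjusted p = 0.00208). Lipe, a lipase gene, rose from 17.5 ± 0.0953 to 26.3 ± 3.87 CPM (edgeR adjusted p = 0.0188). Pparg and Lipe made up most of the sum of the list, so the sum says little about its scarcer genes. Among these, Plin4 was also higher, with 18 and 0 counts in NCD and 217 and 156 in HFD (edgeR adjusted p = 0.027).

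The group also held enzymes and transporters of metabolism. Rdh16f1, of the retinol dehydrogenase family, had 114 and 96 counts, but shares most of its exons with Rdh9. Cyp2ab1, a cytochrome P450, had 29 and 53 counts, Slc22a3, an organic cation transporter, 27 and 16, and Akr1cl, an aldo-keto reductase, 22 and 20. Aldh8a1, an aldehyde dehydrogenase, had 17 and 24. Dio3, the deiodinase that inactivates thyroid hormone, had 25 and 14 counts. The 3 deiodinase genes went different ways, since the activating Dio2 rose from 0.571 ± 0.193 to 2.94 ± 0.162 CPM and Dio1 fell from 114 ± 3.22 to 42.1 ± 4.08 CPM (edgeR adjusted p = 0.0057 and 0.000275). Mboat4, Ces1f, Ppp1r3g and Ftcd had 12 to 20 counts. Mboat4 attaches the fatty acid to the hormone ghrelin, Ces1f is a carboxylesterase, Ppp1r3g directs a phosphatase to glycogen, and Ftcd takes part in the breakdown of histidine.

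Connective tissue and patterning genes were led by Hoxc4, a homeobox transcription factor of the HoxC cluster (ENSMUSG00000075394; chromosome 15, 103018934 to 103036852). It had 125 and 116 counts, with a mean level 10.7-fold above the floor. Its cluster neighbours were sparse, with 0 and 16 counts of Hoxc5 in NCD and 56 and 20 in HFD (edgeR adjusted p = 0.277, and 0.0323 without NCD replicate 2), 8 and 12 against 16 and 12 of Hoxc6, and 0 and 0 against 5 and 14 of Hoxc8. From the HoxA cluster, Hoxa5 rose from 1.63 ± 0.0805 to 8.65 ± 0.277 CPM (edgeR adjusted p = 0.000523). Fmod, which encodes fibromodulin, a small proteoglycan that binds collagen fibrils, had 92 and 86 counts, and the related Lum had 40 and 100 in NCD and 396 and 577 in HFD (log2 change 2.90, edgeR adjusted p = 0.00902). Both HFD libraries held Hoxc4 and Fmod at nearly equal levels.

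Tbx18, a T-box factor of mesenchyme and mural cells, had 80 and 40 counts. Igfbp2, an insulin-like growth factor binding protein, had 18 and 65, the widest gap in favour of HFD replicate 2. Its ligand gene Igf1 stood at 5.22 ± 0.827 CPM in NCD and 6.78 ± 1.32 CPM in HFD (edgeR adjusted p = 0.252). Cpz, a secreted carboxypeptidase that binds Wnt proteins, had 21 and 22 counts and Nppc, the C-type natriuretic peptide, 22 and 19. Wnt6 had 25 and 13 counts, and Thbs4, a thrombospondin of tendon and activated stroma, 12 and 13.

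Fibroblast genes that are no member passed as higher in 19 of 24 tested, with a median log2 change of 2.48. Pdgfra, a growth factor receptor of fibroblasts, rose from 6.96 ± 0.694 to 98.4 ± 1.61 CPM, Dcn, the proteoglycan decorin, from 20.2 ± 1.05 to 192 ± 10.5 CPM and Prrx1, a mesenchymal homeobox factor, from 15.3 ± 0.531 to 83.3 ± 3.74 CPM (edgeR adjusted p between 3.59e-05 and 5.44e-05). The list summed to 252 to 276 CPM in NCD and 1103 to 1266 CPM in HFD, and whether more stromal cells in the preparation set the counts of these 8 members was not tested.

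Neurons and sensory organs were the known source of 13 members. Lhx8, a LIM-homeobox factor of cholinergic neurons, had 66 and 44 counts. Slc5a7, the high-affinity choline transporter of cholinergic terminals, had 44 and 60, but Chat, the enzyme that makes acetylcholine, was at 0 in all 4 libraries and the vesicle transporter gene Slc18a3 had 2 and 0 counts in NCD and 13 and 0 in HFD. Calb2, which encodes the calcium-binding protein calretinin of neurons and mesothelium, had 46 and 48 counts. Of 8 mesothelial genes tested, 3 were higher and 1 lower. The mesothelial factor gene Wt1 rose from 0.386 ± 0.0681 to 6.47 ± 0.558 CPM, whereas Msln, which encodes mesothelin, fell from 37.6 ± 0.254 to 13.1 ± 1.25 CPM (edgeR adjusted p = 0.000355 and 0.000401). The other two that rose were Aldh1a2, an enzyme of retinoic acid synthesis, from 1.32 ± 0.224 to 9.28 ± 1.03 CPM, and Cldn15, a claudin, from 6.09 ± 0.392 to 12.9 ± 0.177 CPM (edgeR adjusted p = 0.000607 and 0.00284).

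Grm6, the glutamate receptor of retinal bipolar cells, had 40 and 47 counts, Cryaa, a lens crystallin, 39 and 16, and Cdh10, a neuronal cadherin, 27 and 26. Tacr1, the receptor of the neuropeptide substance P, had 30 and 26 counts. Its ligand gene Tac1 had 36 and 33 counts in NCD and 169 and 72 in HFD (edgeR adjusted p = 0.0317, which became 0.0871, 0.0925 and 0.182 without the first NCD, the second NCD and the first HFD library, and 0.0624 by limma-voom). Grin2b, Tmem132e, Cntnap5a, Slc6a11 and Gria4 had 12 to 29 counts. Grin2b, a subunit of the NMDA glutamate receptor, had 16 and 29 counts over the longest exonic sequence of the group, while the obligatory subunit gene Grin1 fell from 41.4 ± 0.357 to 20.8 ± 1.67 CPM (edgeR adjusted p = 0.00101).

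Nefl, the light neurofilament chain, had 44 and 46 counts, while the medium chain Nefm stood at 58.5 ± 0.0135 CPM in NCD and 55.3 ± 1.09 CPM in HFD (edgeR adjusted p = 0.375) and the heavy chain Nefh at 5.75 ± 0.376 and 4.73 ± 0.645 CPM (edgeR adjusted p = 0.313). The annotation places 1108 exonic bases of Nefl (32.8%) opposite exons of Nefm, and the sources used here do not state the strand setting of the counting. The Schwann cell and nerve list had 3 of 13 tested genes higher, a count of 1 without NCD replicate 2, HFD replicate 1 or HFD replicate 2. It summed to 144 to 151 CPM in NCD and 152 to 159 CPM in HFD. Most of that sum was Mbp, at 101 ± 6.93 CPM in NCD and 103 ± 0.609 CPM in HFD.

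Striated muscle gave 4 members. Ryr1, the calcium release channel of skeletal muscle, had 25 and 31 counts, Tecrl, a reductase-like protein of heart and muscle, 40 and 12, Tnni1, slow troponin I, 13 and 21, and Tnnt3, fast troponin T, 17 and 16. Other genes of fast muscle fibres were divided between absence and low counts. Myh1, Myh2 and Myh4, the fast myosin heavy chains, and Tnnc2, the troponin C of fast fibres, were at 0 in every library. Mylpf, Atp2a1, Tnni2, Actn3 and Acta1 had between 8 and 83 counts in each library of both diets. The list without Tnnt3 summed to 2.62 to 3.36 CPM in NCD and 2.96 to 3.17 CPM in HFD. Actn3 alone of 5 tested genes passed, at an edgeR adjusted p of 0.05, and it did not pass when any library was left out (0.102 to 0.196), with a replicate block (0.0971), without the count filter (0.0644), by DESeq2 (0.107) or by limma-voom (0.053).

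Ptf1a, the transcription factor that specifies the exocrine pancreas and maintains acinar cells, was the single exocrine member (ENSMUSG00000026735; chromosome 2, 19445663 to 19447501). It had 18 and 28 counts, or 0.392 ± 0.144 CPM, a mean 2.07-fold above the floor. Rbpjl, its partner in the acinar transcription complex, had 4 and 0 counts in NCD and 29 and 40 in HFD (edgeR adjusted p = 0.0453, not passed without NCD replicate 2, HFD replicate 1 or HFD replicate 2, at 0.0754, 0.125 and 0.226, with a replicate block, at 0.0989, or without the count filter, at 0.0769). Most acinar enzyme genes were far more abundant and moved in the same direction. Of the 23 acinar list genes tested, Rbpjl among them, 21 were higher and 1 lower, with a median log2 change of 2.98. The lower gene was Bhlha15, a further transcription factor gene, which fell from 25.2 ± 0.676 to 17.2 ± 0.620 CPM (edgeR adjusted p = 0.00832). The list summed to 539 to 567 CPM in NCD and 3555 to 3998 CPM in HFD. Pnlip, pancreatic lipase, rose from 48.2 ± 1.88 to 391 ± 29.1 CPM (edgeR adjusted p = 3.86e-05). Whether the amount of exocrine tissue left on the islets set the Ptf1a counts was not tested.

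**Figure D3:**
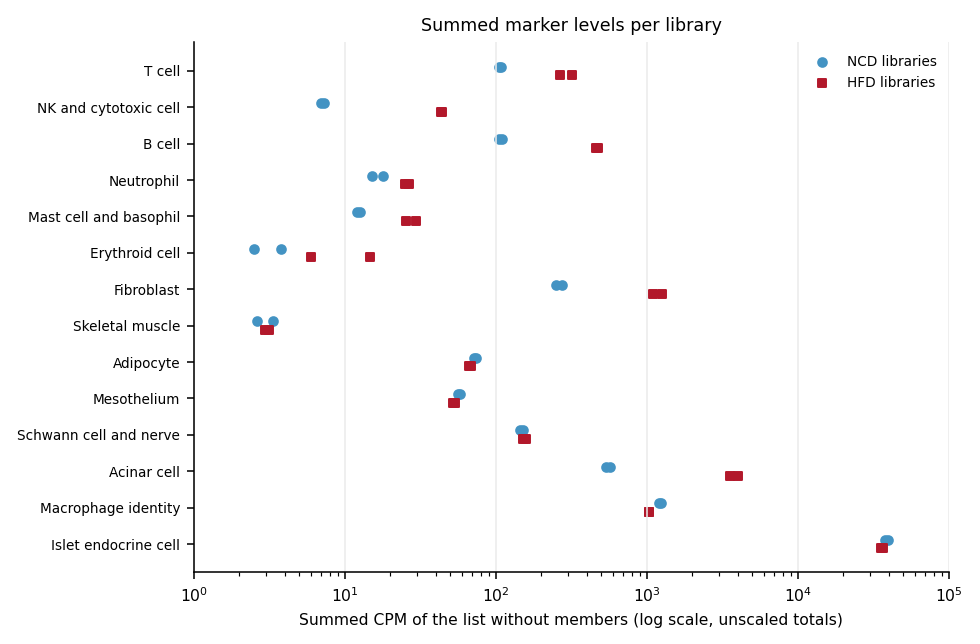
Summed level of 14 marker lists in each library, without the genes of the rule, in CPM of the unscaled totals on a logarithmic axis; blue circles are the NCD libraries and red squares the HFD libraries. T cell, NK, B cell, fibroblast and acinar lists are several-fold higher in HFD, whereas the skeletal muscle, adipocyte, mesothelium and Schwann cell lists lie within a narrow range over all 4 libraries. A flat sum does not mean unchanged genes, since Msln fell while Wt1, Aldh1a2 and Cldn15 rose in the mesothelium list.

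**Figure D4:**
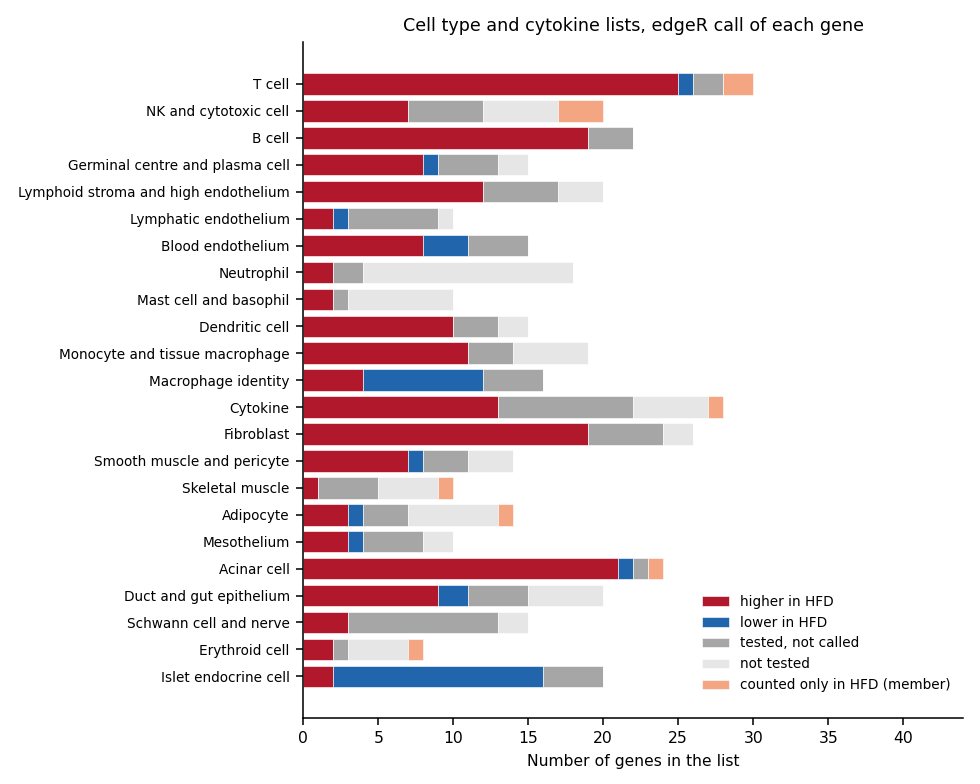
Number of genes in each of the 23 lists that edgeR called higher (red), lower (blue) or neither (dark grey) at an adjusted p under 0.05, that had too few counts to be tested (light grey), or that belong to the 81 genes (orange). The longest red bars are those of T cells (25), acinar cells (21), B cells (19) and fibroblasts (19), and islet endocrine cells have the longest blue bar (14).

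Across the 23 lists, 317 genes that are no member were tested, of which 193 were higher and 34 lower in HFD, with a median log2 change of 1.58. The lists were written with earlier results of these data known, so these counts describe the surroundings of the members and are not independent evidence. Only 10 of the 81 members stand in any list. Macrophage identity genes went in both directions, with 4 of 16 higher and 8 lower, and without single libraries the numbers were 1 higher and between 4 and 8 lower. With a replicate block or without the count filter they were 1 higher and 8 lower. Their sum was 1199 to 1243 CPM in NCD and 1027 to 1033 CPM in HFD.

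Genes of reproduction, cilia and the vomeronasal organ formed a small group. Dnah6, a heavy chain of the dynein motor of cilia, had 100 and 81 counts, and Foxj1, the transcription factor of motile cilia, rose from 1.18 ± 0.215 to 3.66 ± 0.258 CPM (edgeR adjusted p = 0.0075). Dnah5, a further ciliary dynein chain, had 4 and 0 counts in NCD and 8 and 0 in HFD. Prl2c3, a prolactin-family hormone of placenta, had 93 and 80 counts and Vmn2r96, a vomeronasal pheromone receptor, 42 and 33. Meiob, a meiotic recombination protein, had 18 and 14 counts and H2-M1, a class Ib histocompatibility gene of vomeronasal neurons, 12 and 16. The members with no common role were Wscd2 (42 and 32 counts), Pgpep1l (21 and 49), Tcf23 (28 and 36), Rprm (32 and 12) and Folh1 (22 and 12). Of these, Rprm is a cell-cycle inhibitor induced by p53, and Folh1 is a carboxypeptidase that cleaves glutamate from folates and peptides.

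Some members share sequence with genes that were counted in NCD, and their counts are uncertain. Rdh16f1 and Rdh9 share 2302 exonic bases on the same strand, which is 83.2% of Rdh16f1. A further 464 bases (16.8%) are shared with Rdh1, which had 86 and 70 counts in NCD and 63 and 70 in HFD. Rdh9 had 288 and 195 counts in NCD and 3 and 7 in HFD, the reverse of Rdh16f1 with its 0 and 0, and 114 and 96. Added together the pair had 288 and 195 counts in NCD and 117 and 103 in HFD, so that the sum was lower in HFD while Rdh16f1 alone appeared. SPATA24, a read-through model with 46 and 64 counts, shares 695 exonic bases with Mzb1, a plasma cell gene with 1050 and 1114 counts in NCD and 3109 and 3060 in HFD, and 420 bases with Spata24. Gm45208 (21 and 17 counts) lies on exons of Wdr45 and Praf2, and Gm49358 (13 and 12) shares 97.9% of its exonic bases with Nt5dc3. Each of Wdr45, Praf2 and Nt5dc3 had a minimum of 1006 counts in every library. A further 2.07% of Gm49358 is shared with Ttc41, which had 635 and 545 counts in NCD and 450 and 378 in HFD. The remaining unnamed models, 5830411N06Rik and 1810046K07Rik, had 19 and 34, and 17 and 18.

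Near-identical copies elsewhere touched other members. Prl2c3 matches Prl2c2 at 99.5% over 842 bases, and Prl2c2 had 7 and 12 counts in NCD and 76 and 49 in HFD (edgeR adjusted p = 0.0159, a call lost without HFD replicate 1 or HFD replicate 2, at 0.11 and 0.0501). Vmn2r96 matches Vmn2r97 at 95.3% over 1543 bases, and Vmn2r97 had 4 and 0 counts in NCD and 296 and 234 in HFD. In both pairs the copy rose with the member. Krt83 matches Krt87 at 95.4% over 571 bases, and Krt87 had 123 and 132 counts in NCD and 119 and 94 in HFD, so the copy did not follow. Dsg1b matches Dsg1a at 98.3% over 1795 bases, and Dsg1a had 4 counts in HFD replicate 2 and none elsewhere. In all, 4 members shared exons with a gene on the same strand, microRNA genes aside, and 13 overlapped exons on the opposite strand. A copy of 300 bases or more at 95% identity without shared exons was found for 7. Gria4 shared 19 bases with a microRNA gene on the same strand, and 58 members had none of these. A2m, Hoxc4, Fmod, Cfd, Slamf1, Gzmk and Cd8b1 were among those 58, as was Dsc3.

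**Figure D5:**
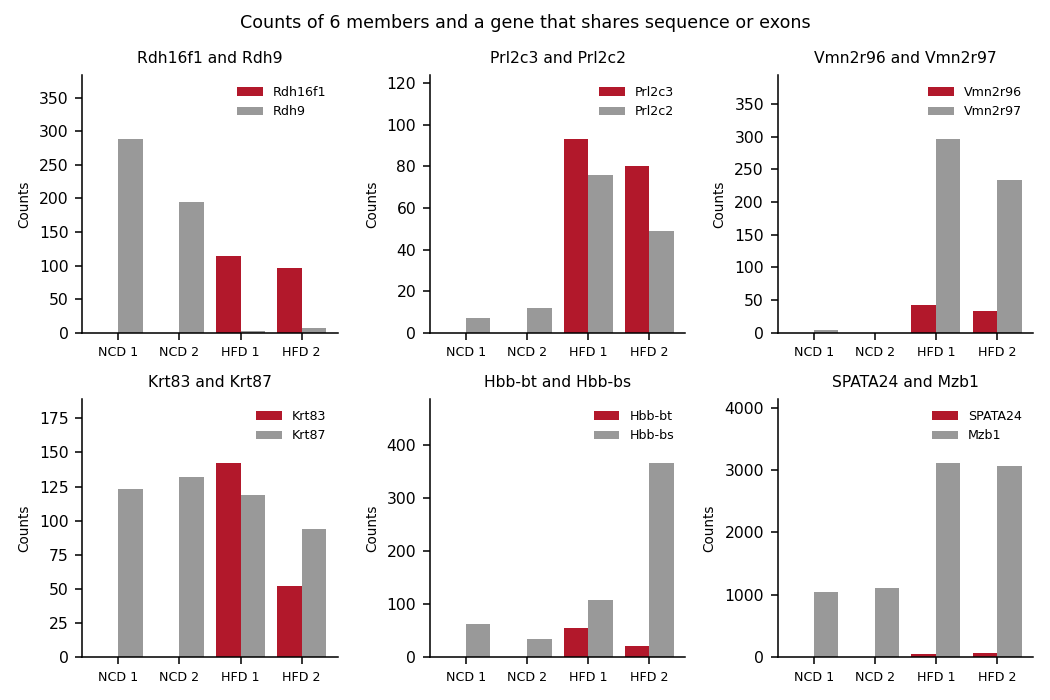
Counts in each library of 6 members (red) and of a gene that shares exons or near-identical sequence with each (grey); the vertical axes start at 0 and differ between panels. Rdh9 falls where Rdh16f1 appears, Prl2c2 and Vmn2r97 rise with their copies, and Krt87 stays between 94 and 132 counts while Krt83 goes from 0 to 142 and 52.

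Genes close to the rule on either side show how the minimum cuts a continuous range. The members with the lowest counts included Duox2 (19 and 12), Folh1, Ftcd, Gm49358 and Gria4. Just outside, with no count in NCD and 11 in the lower HFD library, stood Emx2, Frmpd2, Slc4a5, the mast cell tryptase gene Tpsb2 and Zfp853, and 42 genes in all had 8 to 11 counts there. A further 45 genes missed the rule through 1 to 4 counts in NCD although they had 12 or more in both HFD libraries. Vip, a neuropeptide gene, had 4 and 0 counts in NCD and 142 and 183 in HFD, Gdpd2 had 4 and 0 against 169 and 141, Izumo1r, the folate receptor 4 gene of regulatory T cells, 0 and 4 against 126 and 123, and Gata3, a T cell factor, 0 and 4 against 72 and 136. These 4 genes exceeded most members in HFD. Of the 6 genes left out by name, Ccl21a had the highest counts, with 653 and 203, and Ccl19, Ccl24, Glycam1, Serpini2 and Adamts20 had 12 to 86.

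Members were spread over the genome, with 13 on chromosome 1 and 10 on chromosome 7 as the largest numbers. A few lay close together. Besides Prg2 and Prg3, Rufy4 and Cxcr1 were 43561 bases apart on chromosome 1 with Cxcr2 between them. Of the 4 protein-coding genes that separate Dsc3 from Dsg1b in the cadherin cluster of chromosome 18, Dsc2 had 990 to 1312 counts in each library of both diets.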

How the data were processed

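RNA-seq of 4 libraries, 2 per diet, was analysed from the authors' deposited tables, which hold a whole-number count for each gene in each library. As tools and build, the submitters' processing notes list HISAT, DESeq (version 1.8.3), featureCounts (version 1.5.0) and GRCm38, and the labels' protocols name a stranded library kit. How strand and multiply matching reads were treated is not stated in these sources. Identifiers were matched to GENCODE M21 (55240 of 55421), and members were taken by the rule from the counts as deposited.

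The filter was filterByExpr of edgeR 4.0.16 in R 4.3.3 (min.count 10), which kept 21563 genes. These were scaled by TMM and tested for diet without a replicate block, and genes with an adjusted p under 0.05 (Benjamini-Hochberg) were called. Levels of genes in CPM use TMM-scaled library sizes, and sums over a list the unscaled totals. The biological coefficient of variation was 19.1%. Same-numbered libraries of the 2 diets did not deviate together (correlation 0.00211 across genes). Shared exons were found with bedtools 2.31.1 and near-identical transcripts with BLAST 2.17.0. Promoter sequences are RefSeq's for GRCm38.p6.

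The members and the 23 lists were chosen with earlier results of these data known, and the sorting by role and the partner genes after the members' values were seen. Named were up to 8 members per role group with their counts and the others with a range, 5 genes just inside the rule and 5 on each side outside it, list genes among the 3 with the smallest p of their list, and Adgre1, Csf1r, Cd68, Ins2 and Gcg. Some further list genes were named, such as those that weighed on a sum or went against their list. Other settings tried were the size factors of DESeq2, its Wald test (version 1.42.0), limma-voom (limma 3.58.1), no count filter, a replicate block, leaving out each library, and other thresholds of the rule. Leaving out members that share exons on the same strand was added after seeing the data. With 1 library left in a diet, its spread was taken to be that of the other diet. A small number of genes covered by these choices are not reported here.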

Additional observations from a re-analysis of the deposited data

How the results depend on the processing

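The rule took 81 genes, and 252 with a minimum of 4 counts, 33 with a minimum of 24, 136 with up to 4 counts allowed in each NCD library, 206 over all gene types and 154 to 190 with any 1 library left out. It took 87 with no names left out and 77 without members that share exons. The mirror rule took 10 genes, and 47, 2 and 16 under the first 3 of these changes, 14 over all gene types and 34 to 40 with 1 library left out, so members outnumbered mirror genes under each of these settings. Genes higher in HFD numbered 2710 to 4053 over the alternatives, and genes lower in HFD 2583 to 3333, or 2015 to 2174 with 1 library left out (2015 without HFD replicate 1). With a replicate block 3252 genes were higher and 2583 lower, and 181 list genes were higher and 35 lower, against 193 and 34 without it. The replicate numbers gave no sign of pairing (correlation 0.00211 across genes), but 1 correlation cannot exclude it. The median gap between the HFD libraries was 1.35-fold, with scaled or unscaled totals. Differences that did not pass the test changed sign without single libraries for Ccr3 (edgeR adjusted p between 0.159 and 0.988) and Dsc2 (between 0.278 and 0.915). Depth limits the members, since 33 of them had an HFD mean under 2-fold against the floor and 46 lay under 0.5 CPM.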
